A study of Mus musculus with 6 samples.

Results

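The 39 interferon-stimulated genes of a named list were followed across the cell lineages of mouse bone marrow and blood, young and aged, at steady state and after stroke. The members were taken by gene symbol and not by any measured value, and all 39 were among the 23016 genes of the count table. Cells of wild-type mice had been profiled with a droplet method that counts the 3′ ends of transcripts (Chromium Single Cell 3′ v3.1), in 6 libraries with 1 library per group. The groups were steady-state marrow of young mice, steady-state marrow of aged mice, marrow of young and of aged mice 24 h after middle cerebral artery occlusion (an experimental ischaemic stroke), and steady-state blood of young and of aged mice. Marrow libraries held fractions enriched for Gr1+ and c-kit+ cells, and blood libraries held CD11b+ Ly6G+ and CD11b+ Ly6G− sorted cells. The ages and the number of mice behind each library are not given in the sources used here.

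Each library was therefore a single sample of its group, without a replicate. Values of 1 library carry an interval for counting error only (exact Poisson for levels, exact binomial for shares), which treats unique molecular identifiers (UMIs, the tags that count molecules) as independent. Tests joined libraries: the age effect was the aged minus young difference over all contexts that held both ages. Its error combined counting error with how far such differences varied between contexts. edgeR pools that variation across genes, in some fits almost wholly, so the error is not the spread of a single member. The stroke effect was likewise measured over both ages. All p-values came from edgeR's quasi-likelihood test on UMI counts summed per library and lineage, with Benjamini-Hochberg adjustment across every gene in the fit, and an adjusted p below 0.05 was called.

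The libraries held 10208699 to 72743805 UMIs in 28055 barcodes, with library medians of 3810 to 9302 UMIs per barcode before filtering. Of these barcodes 26893 were kept as cells (2029 to 8213 per library). Of all barcode sequences, 104 occurred in more than 1 library. A cell was given a lineage when at least 3 of that lineage's marker genes were on (for dividing pre-neutrophils at least 2 granule and 2 cell cycle genes). None of the listed members was a marker, and whether other interferon-responsive genes were among the markers was not examined. This placed 98.6% of blood cells in each age, 90.7% to 91.4% of steady-state marrow cells and 78.8% to 81.6% of marrow cells after stroke. Cells after stroke reached mitochondrial shares of 9.90% to 9.95%, against at most 4.99% in the other 4 libraries, so condition, cell filtering and library cannot be told apart in any stroke difference. A lineage was described in a library only where at least 30 cells were gated. B lineage cells (41 young and 184 aged) and NK cells (115 and 285) were among the gated blood cells although blood had been sorted on CD11b.

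Type I interferons bind a receptor made of Ifnar1 and Ifnar2 and act through the kinases Jak1 and Tyk2. A complex that contains Stat2 and Irf9 then enters the nucleus and binds the interferon-stimulated response element (ISRE) in promoters. Its targets restrict viruses in many ways, and several of them are held at a low tonic level in blood-forming tissue without infection. The 39 members covered transcription factors of the pathway (Irf7, Irf9, Stat2), sensors of foreign nucleic acid (Ifih1, Ddx58, Dhx58, Zbp1, Eif2ak2), and the nucleic acid binding Ifi200 family (Ifi204, Ifi209, Ifi211). The Ifit family (Ifit1, Ifit2, Ifit3, Ifit3b, Ifit1bl1) binds foreign RNA, and the oligoadenylate synthetase family (Oas1a, Oas2, Oas3, Oasl1, Oasl2) contains enzymes that activate RNase L together with enzymatically silent relatives. The GTPases were Mx1, Mx2, Gbp2 and Ifi47. Isg15 is a ubiquitin-like modifier, Usp18 removes it and dampens receptor signalling, and Herc6 is its ligase. The other effectors were Rsad2 (viperin), Cmpk2, Isg20, Xaf1, Parp14, Trim30a, Slfn5, Rtp4, Ifi44 and Ifi35, and Cxcl10 was the chemokine.

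Promoter sequences are shown for the members on which the comparisons below turn, to let the response elements be seen beside the values. RefSeq promoter windows of build GRCm38.p6 (250 bases before to 50 after the start) were found for 30 members. Isg15 (chr4:156200769-156201068, minus strand) had 3 overlapping matches to the ISRE core, first bases -78, -72 and -66 from the start. Ifit1 (chr19:34640639-34640938, plus strand) had matches at -104 and -85, and Rsad2 (chr12:26456403-26456702, minus strand) had 1 at -120. Oas1a (chr5:120907476-120907775, minus strand) had overlapping matches at -20 and -14. Oasl2 (chr5:114896684-114896983, plus strand) had none. Capitals mark matches, read 5′ to 3′ on the gene's strand.
Isg15: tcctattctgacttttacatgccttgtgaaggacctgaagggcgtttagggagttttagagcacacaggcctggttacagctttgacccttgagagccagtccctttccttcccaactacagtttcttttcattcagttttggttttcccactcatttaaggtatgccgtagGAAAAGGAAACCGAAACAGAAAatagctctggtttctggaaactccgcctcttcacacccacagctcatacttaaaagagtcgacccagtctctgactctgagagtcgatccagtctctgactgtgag
Ifit1: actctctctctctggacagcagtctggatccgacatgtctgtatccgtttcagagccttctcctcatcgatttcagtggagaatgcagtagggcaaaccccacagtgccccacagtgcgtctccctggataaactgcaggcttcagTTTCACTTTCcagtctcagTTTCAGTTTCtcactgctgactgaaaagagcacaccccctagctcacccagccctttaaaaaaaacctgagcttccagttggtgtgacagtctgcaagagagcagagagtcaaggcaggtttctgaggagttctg
Rsad2: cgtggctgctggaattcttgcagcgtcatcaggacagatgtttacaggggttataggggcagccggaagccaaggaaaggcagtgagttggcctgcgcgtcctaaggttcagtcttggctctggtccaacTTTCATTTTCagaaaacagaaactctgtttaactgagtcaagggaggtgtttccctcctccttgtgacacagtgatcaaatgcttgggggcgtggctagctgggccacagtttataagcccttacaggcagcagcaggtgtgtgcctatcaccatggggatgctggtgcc
Oas1a: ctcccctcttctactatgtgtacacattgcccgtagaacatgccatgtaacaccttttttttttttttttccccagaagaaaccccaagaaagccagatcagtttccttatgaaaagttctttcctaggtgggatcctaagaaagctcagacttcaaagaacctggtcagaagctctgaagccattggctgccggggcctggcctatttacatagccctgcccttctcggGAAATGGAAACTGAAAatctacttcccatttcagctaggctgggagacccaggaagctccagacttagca
Oasl2: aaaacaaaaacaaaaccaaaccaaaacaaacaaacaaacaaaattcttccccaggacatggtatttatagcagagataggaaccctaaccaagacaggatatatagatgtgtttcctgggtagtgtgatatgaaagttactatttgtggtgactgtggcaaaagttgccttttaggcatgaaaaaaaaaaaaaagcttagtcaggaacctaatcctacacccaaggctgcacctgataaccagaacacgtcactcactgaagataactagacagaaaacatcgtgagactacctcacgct

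The letters searched were GAAA, then NN (any pair of bases), then GAAA, and for the other strand TTTC, NN and TTTC. A match was present in 17 of the 30 members (56.7%), against 3.99% of 27025 genes with a window of the same length. The 13 members without a match were Cmpk2, Herc6, Ifi209, Ifi35, Ifi44, Ifi47, Ifit2, Irf7, Irf9, Isg20, Oasl1, Oasl2 and Xaf1. In the same build the annotation places Isg15 at chr4:156199424-156200818, Ifit1 at chr19:34640871-34650009, Rsad2 at chr12:26442746-26456452, Oas1a at chr5:120896256-120907521 and Oasl2 at chr5:114896936-114912234, all protein-coding. Several members have near copies whose reads the 3′ counting could mix up. Over the last 400 bases of its transcripts, Ifi211 shared 91.1% of its 31-base words with Ifi205, Ifi209 72.4% with Ifi214, Oas1a 61.9% with Oas1g and Ifit3 30.5% with Ifit3b, so the values of these 4 members are uncertain.

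Levels are given in CPM (counts-per-million, a gene's UMIs scaled to all UMIs of the lineage in that library). The summed level of the 39 genes spanned a wide range. In young blood it was 4144 (95% interval 4042 to 4247) in classical monocytes, 2972 (2930 to 3014) in mature neutrophils, 2195 (2090 to 2304) in non-classical monocytes, 1328 in B lineage cells and 1286 in NK cells. In aged blood the same lineages had 2833 (2796 to 2870), 1577 (1556 to 1598), 1229 (1203 to 1255), 939 and 886. Classical monocytes were the highest lineage in blood at both ages, and the B lineage and NK intervals overlapped at both ages. Conventional dendritic cells, which were numerous enough only in aged blood, were at 1613, a level whose interval overlapped that of mature neutrophils. Blood erythroid cells, with 32 cells in the aged library only, were at 1506, but 25 of the 39 members had no UMI there. Rsad2 led that sum at 643 CPM, followed by Isg15 at 430 and Isg20 at 367, and 1 cell held 24.6% of the gate's member UMIs.

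In steady-state marrow the mature neutrophil gate held only 34 young and 32 aged cells, with summed levels of 1573 (1389 to 1775) and 762 (638 to 902). A single young cell held 25.9% of that gate's member UMIs, and without it the young level was 1199. Conventional dendritic cells were at 1192 and 894 in young and aged marrow, classical monocytes at 1122 and 1006, T cells at 844 and 957, plasmacytoid dendritic cells at 764 and 574, and stem and progenitor cells at 747 and 776. Lower values were found in megakaryocytes (515 and 532), erythroid cells (468 and 389), basophils and mast cells (445 and 482) and immature neutrophils (438 and 345). Neutrophil-primed granulocyte progenitors, which carry primary granule genes such as Mpo and Elane, were at 397 and 352. Dividing pre-neutrophils were the lowest lineage in all 4 marrow libraries, at 227 and 209 before stroke and at 124 and 149 after it. Of the 3 stages of neutrophil development after the progenitors, dividing pre-neutrophils were the lowest, immature neutrophils higher and mature neutrophils the highest in each of the 4 marrow libraries.

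**Figure D1:**
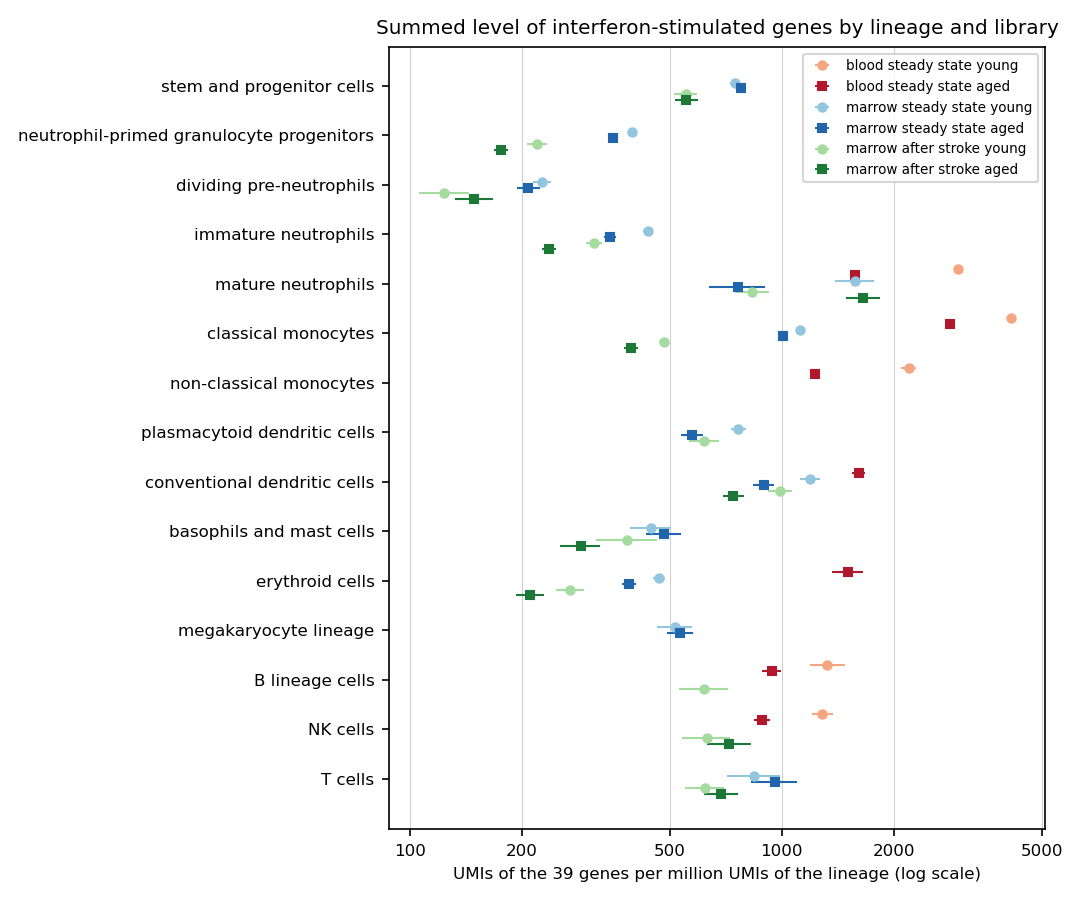
Summed CPM of the 39 genes in each lineage (log scale), 1 point per library with its exact Poisson 95% interval. Blood classical monocytes and blood mature neutrophils lie to the right, dividing pre-neutrophils to the left, and young points exceed aged points in each blood lineage drawn at both ages.

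Members did not peak in the same lineage. In blood, with the mean over both ages, 20 members were highest in classical monocytes, among them Irf7, Slfn5, Zbp1, Usp18, Oas1a, all 3 Ifi200 members and all GTPases except Ifi47. Mature neutrophils held the highest level of 15 members, among them Isg15, Rsad2, Rtp4, Trim30a, Ifit1 and Oasl2. Stat2 and Ifit1bl1 were highest in B lineage cells and Ifi47 and Herc6 in NK cells. In steady-state marrow mature neutrophils led for 13 members, conventional dendritic cells for 9, classical monocytes and T cells for 5 each, stem and progenitor cells for 3 (Eif2ak2, Oas1a, Ifi44), plasmacytoid dendritic cells for Stat2 and Trim30a, erythroid cells for Isg20 and the megakaryocyte lineage for Ifih1. The 13 came from a small gate and several rested on few UMIs. In young and aged marrow Oas2 had 1 and 2, Herc6 2 and 2 and Ifit3 4 and 0, while Rsad2 had the most, 25 and 7. The leading lineage of such members is uncertain.

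**Figure D2:**
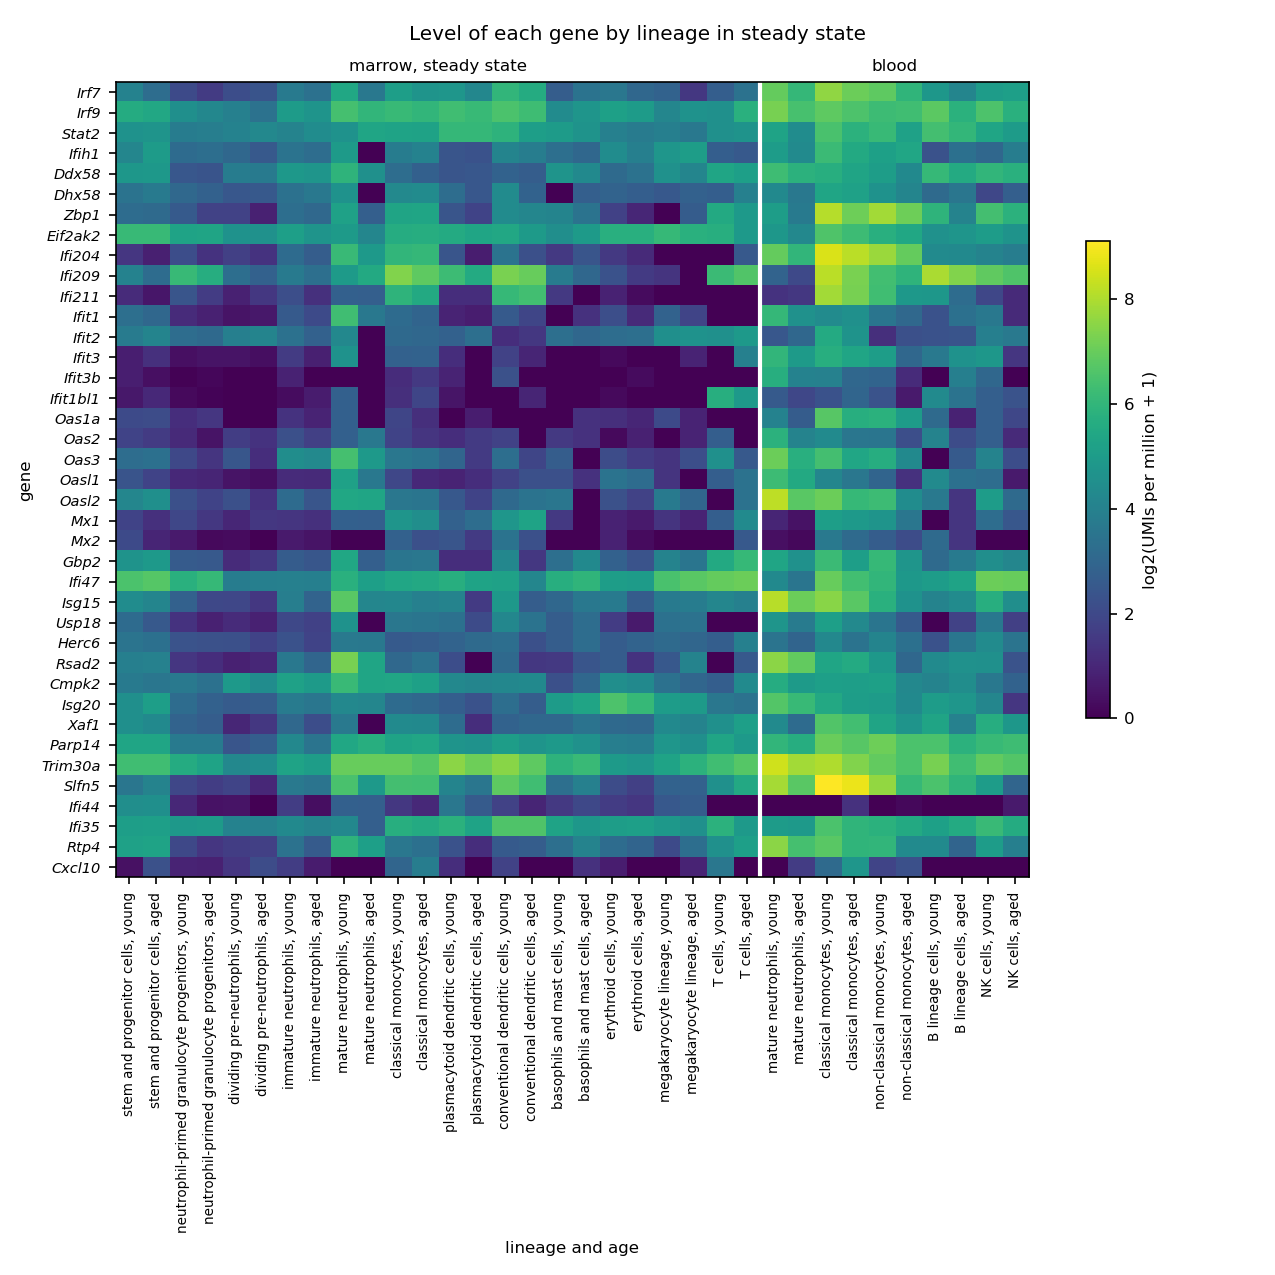
Each of the 39 genes (rows) by lineage and age at steady state (columns), as log2(CPM + 1), bright for high. Blood classical monocytes and mature neutrophils are bright for the most genes, while Isg20 stands out in erythroid cells and Ifi44 in stem and progenitor cells.

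Lineages were compared within the 4 marrow libraries, each lineage against the mean of the other 9 that had enough cells, for the 37 members that passed the filter on low counts. In mature neutrophils 19 members were higher and 1 lower, where 18.1% and 23.4% of all 12402 genes were called. The median member difference was 1.35 (log2) against -0.29 over all genes. The antiviral synthetases and effectors led: Oasl2 was higher by 4.24 ± 0.47 (log2 ± SE, edgeR adjusted p = 2.01e-09), Ifi204 by 3.86, Rsad2 by 3.85, Oas3 by 3.77, Oas2 by 3.47 and Isg15 by 2.86. Cxcl10 was called higher by 5.78, but all of its 78 UMIs after stroke in aged mature neutrophils came from 1 cell and the fitted value turned to -5.70 without that library, when this gate held no Cxcl10 UMI. Ifi35 was the only member lower, by -1.22.

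Immature neutrophils had 16 members higher and 3 lower (background 32.9% and 24.9%). All 5 sensors of foreign nucleic acid were among those called higher, with Ddx58, which encodes the RNA sensor RIG-I, at 1.75 ± 0.16 (log2 ± SE). Oas3 was higher by 2.92, Cmpk2, which makes nucleotides for Rsad2, by 2.12 and Rsad2 by 1.83, while the GTPase Ifi47 was lower by -1.24. With scaling to the total count alone, 7 members were higher and 13 lower and the median turned from 0.42 to -0.39, so the direction of the list in this lineage depended on scaling.

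Among the mononuclear phagocytes, classical monocytes had 16 members higher and 5 lower (background 28.0% and 17.4%). All 3 Ifi200 members were higher there: Ifi204 by 3.77 ± 0.20, Ifi211 by 3.63 and Ifi209 by 2.65 (log2). Mx1, which blocks viral ribonucleoproteins, was higher by 2.73 and Slfn5 by 2.33, and Ddx58 was lower by -1.50. Conventional dendritic cells had 14 higher and 3 lower (20.1% and 9.51%), led by Ifi211 at 5.79 ± 0.29, Mx1 at 3.91, Slfn5 at 3.58 and Irf7, the amplifier of interferon production, at 2.30. Ddx58 was lower in them too, by -1.95.

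Stem and progenitor cells had 14 members higher and 6 lower (33.0% and 19.6%). Ifi44 was at 21.4 and 22.3 CPM in young and aged steady-state stem and progenitor cells and at 16.1 and 13.1 after stroke, and was higher than in the other lineages by 4.55 ± 0.44 (log2). Rtp4 was higher by 1.98, whereas Ifi211 and Ifi204 were lower by -2.72 and -2.71. T cells had 13 higher and 1 lower (17.1% and 15.2%). Ifit1bl1 was higher in T cells by 7.23 ± 0.55 (log2), on few molecules: 9 and 6 UMIs in young and aged steady-state marrow and 2 and 11 after stroke. The GTPase Ifi47 was at 124 and 131 CPM in young and aged steady-state T cells and at 108 and 125 after stroke, higher by 2.10 (log2).

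Neutrophil-primed granulocyte progenitors had 24 members lower and 2 higher (26.9% and 34.5% of genes), with a median of -1.49 (log2), Slfn5 at -3.17 and Irf7 at -2.91. The 2 higher members were Ifi209 (1.12) and Ifi47 (0.57). Dividing pre-neutrophils had 19 lower and 3 higher (25.5% and 29.0%), among the lower ones Ifit1 at -2.86, Oasl1 at -2.79 and Slfn5 at -2.69. Their 3 higher members were Ifit2 (1.61), Cmpk2 (1.52) and Ddx58 (0.58, which turned to -0.12 under total-count scaling). Erythroid cells had 21 lower and 2 higher (31.2% and 35.6%): Isg20, an exonuclease that degrades RNA, was higher by 2.54 ± 0.13 and Oasl1 by 2.02, and Ifi209 was lower by -3.86. Isg20 was at 93.8 and 67.5 CPM in young and aged steady-state erythroid cells and at 104 and 61.1 after stroke. Basophils and mast cells had 1 higher (Isg20, 0.97) and 3 lower (15.1% and 7.67%), Dhx58 at -2.32 the largest.

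Age was compared next. The summed level of the 39 genes in blood was lower in the aged library in every lineage measured at both ages. The aged to young log2 ratio was -0.91 (95% interval -0.94 to -0.89) in mature neutrophils, -0.84 (-0.91 to -0.76) in non-classical monocytes, -0.55 (-0.59 to -0.51) in classical monocytes, -0.54 (-0.66 to -0.42) in NK cells and -0.50 (-0.68 to -0.32) in B lineage cells. In blood mature neutrophils 14 of 36 members with at least 20 UMIs were lower by 1 or more log2 units and 1 was higher, where 3.28% and 4.10% of all genes were. The higher one was Cxcl10, with 29 UMIs in the aged library and 0 in the young one. The lower ones included Oas2 (-1.87), Ifit3b (-1.74), Oas1a (-1.57), Ifit1 (-1.51), Oasl2 (-1.42) and Zbp1 (-1.40), and 33 of the 36 members lay below 0.

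Non-classical monocytes had 13 of 35 members lower by that size and 1 higher (3.73% and 8.76%), with Ifit3 at -2.17, Rsad2 at -1.95 and Oasl2 at -1.88 against Ifit2 at 1.45. Classical monocytes had 5 of 38 lower and 1 higher (3.29% and 5.68%), Gbp2 at -1.13 the lowest and Cxcl10 at 1.78 the highest. NK cells had 6 of 23 lower and none higher (3.41% and 3.71%), and B lineage cells 2 of 19 lower and 1 higher (4.65% and 10.3%). Neutrophil marker UMIs moved with age in the blood NK gate, at 1919 CPM in young and 1033 in aged NK cells, and were 1018 and 760 in B lineage cells. Their part in the NK and B lineage differences was not tested. In classical and non-classical monocytes these markers were at 3457 and 3377, and at 2854 and 2881.

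In steady-state marrow the summed log2 ratio was below 0 in mature neutrophils (-1.05, from 34 young and 32 aged cells), immature neutrophils (-0.34), classical monocytes (-0.16), neutrophil-primed granulocyte progenitors (-0.17), erythroid cells (-0.26), plasmacytoid dendritic cells (-0.41) and conventional dendritic cells (-0.42). Immature neutrophils had 6 of 35 members lower by 1 or more log2 units and 0 higher (1.63% and 1.14% of genes), and the granulocyte progenitors 7 of 37 lower and 0 higher (1.37% and 1.34%). The ratio was 0.05 in stem and progenitor cells (-0.00 to 0.11), 0.05 in the megakaryocyte lineage, 0.11 in basophils and mast cells, 0.18 in T cells and -0.12 in dividing pre-neutrophils, and each of these 5 intervals included 0. After stroke the ratio was -0.40 in immature neutrophils, -0.29 in classical monocytes and 0.00 in stem and progenitor cells. It was 0.99 (0.77 to 1.21) in mature neutrophils, from 92 young and 50 aged cells. One aged cell held 135 of the 348 member UMIs, including all 78 of Cxcl10, and the ratio without the cell with the most member UMIs in each library was 0.48.

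**Figure D3:**
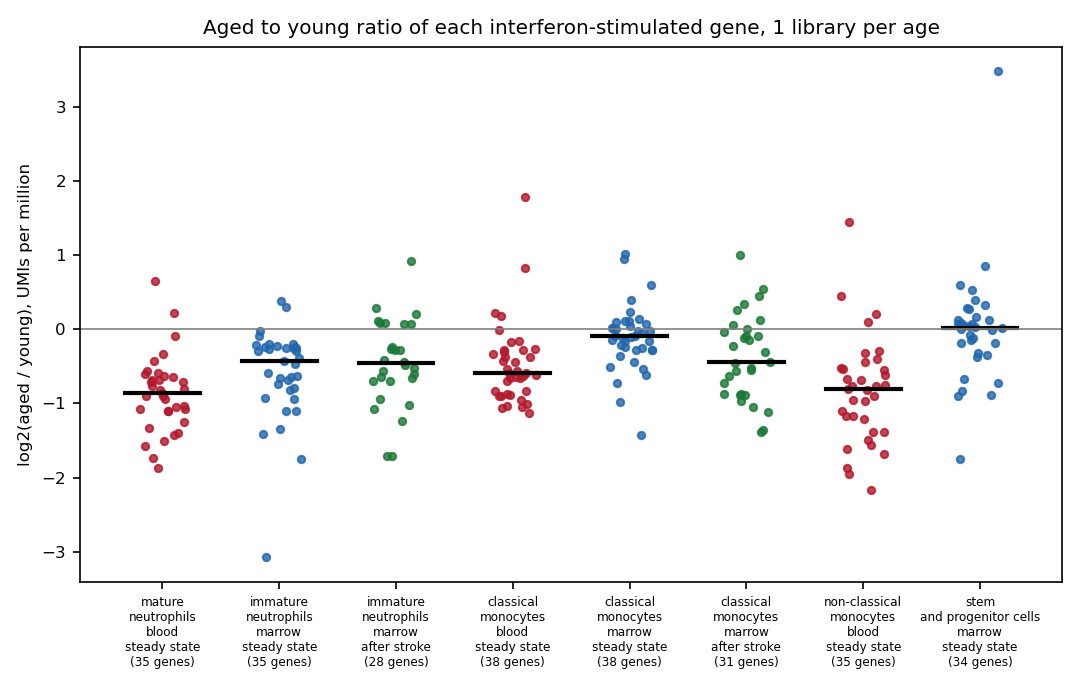
Aged to young log2 ratio of each gene with at least 20 UMIs in the pair of libraries, by lineage and context, 1 library per age (red, blood; blue, steady-state marrow; green, marrow after stroke; bars, medians). Most points lie below 0 in the blood lineages, stem and progenitor cells scatter about 0 with Cxcl10 far above it, and Cxcl10 in blood mature neutrophils, with no UMI in the young library, is not drawn.

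The age effect was then tested across contexts. In neutrophils, immature and mature joined, with all 6 libraries, 35 of 37 members tested lay below 0 and the median was -0.59 (log2) against 0.04 over all genes. No member passed edgeR's threshold, where 0.00779% of 12845 genes were called higher and 0 lower. At an unadjusted p below 0.05 edgeR had 24 members lower and none higher, against 3.80% of all genes in either direction, and DESeq2 called 4 members lower. The 4 members with the smallest adjusted p are described, a choice made after their values were seen. Isg15 was at 278, 15.7 and 17.7 CPM in young blood, steady-state marrow and marrow after stroke, and at 131, 6.68 and 8.98 in the aged ones. In this joined gate it was lower in the aged library of each pair, by -1.03 ± 0.14 (log2 ± SE, edgeR adjusted p = 0.0704). The gate's makeup differed between libraries: mature cells were 1626 of 1627 young and 3328 of 3329 aged cells in blood, 34 of 1266 and 32 of 1002 in steady-state marrow, and 92 of 518 and 50 of 662 after stroke. The part of this makeup in the joined values was not tested. In mature neutrophils alone, Isg15 after stroke was at 63.5 CPM in young and 81.0 in aged mice, the other direction.

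Oasl2, an oligoadenylate synthetase-like protein, was at 294, 8.82 and 10.1 CPM in the young blood, steady-state and stroke neutrophils and at 110, 5.07 and 4.54 in the aged ones (-1.15 ± 0.16, edgeR adjusted p = 0.0704). Ifit1 was at 66.3, 6.38 and 2.34 in the young and at 23.4, 3.34 and 0.443 in the aged (-1.36 ± 0.21, edgeR adjusted p = 0.0931). Rtp4, a transmembrane protein that binds viral RNA, was at 182, 10.7 and 9.55 in the young and at 84.5, 5.69 and 5.32 in the aged (-0.93 ± 0.15, edgeR adjusted p = 0.0931). In the joined gate the aged value of all 3 members was below the young one in each context. In mature neutrophils alone after stroke, Rtp4 was at 21.99 in young and 76.2 in aged mice (9 and 16 UMIs), Oasl2 at 83.1 and 81.0 and Ifit1 at 4.89 and 4.77. In immature neutrophils alone after stroke, Rtp4 was at 8.56 and 3.63, Oasl2 at 4.28 and 2.72 and Ifit1 at 2.14 and 0.34, lower in aged mice in each case. By role, the median age effect (log2) was -1.13 for the Ifit family, -1.01 for the oligoadenylate synthetases, -0.73 for Isg15 and its enzymes, -0.66 for the Ifi200 family, -0.51 for other effectors, -0.45 for transcription factors, -0.41 for sensors and -0.32 for GTPases. Cxcl10 was at 1.53 with an SE of 0.79.

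The number called in neutrophils depended on the libraries in the fit. It was 13 lower without either stroke library, 5 and 1 without the aged or young steady-state marrow library, and 3 and 2 without the aged or young blood library. The member median stayed below 0 in all 6 of these fits, from -0.66 to -0.40. In mature neutrophils alone no member of 21 was called (edgeR; 0% of 4554 genes in either direction; 10 lower at an unadjusted p below 0.05, 0 by DESeq2), with a median of -0.69. There 12 and 11 members were called lower without the aged or young stroke library, and the median was 0.02 and 0.04 without the aged or young blood library. The fits without 1 library have no share of all genes called beside them here, and neither has the unadjusted count of mature neutrophils. These counts are therefore not set against a background.

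Classical monocytes had 35 of 38 members below 0 and a median of -0.40 (log2), and none passed the threshold (edgeR; 0.0161% and 0% of 12445 genes; 1 higher and 15 lower at an unadjusted p below 0.05, 0 by DESeq2). Without either stroke library 6 were called lower, and without either steady-state marrow library 1. No share of all genes is given here for those fits or at the unadjusted p, so these counts have no background. Oas1a had the smallest adjusted p (-0.86 ± 0.18, edgeR adjusted p = 0.257): it was at 107, 2.71 and 9.76 CPM in young blood, steady-state and stroke marrow and at 51.3, 1.37 and 7.18 in the aged ones. Irf7 was at 192, 33.7 and 12.6 in the young and at 133, 24.9 and 6.84 in the aged (-0.58 ± 0.13). Rsad2 did not share this direction, at 39.6 and 45.9 CPM in young and aged blood (0.27 ± 0.20). Role medians ranged from -0.70 for the oligoadenylate synthetases to -0.23 for the sensors, apart from Cxcl10 at 1.14. Of 217 Cxcl10 UMIs in aged blood monocytes, 74 came from 1 cell, and 20 of 628 cells held any.

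The age effects of neutrophils and classical monocytes were compared in 1 fit of 39 members, with the library as a block. The effect was more negative in neutrophils for Ifit1 (difference -1.22 ± 0.28, edgeR adjusted p = 0.0109) and Rsad2 (-0.93 ± 0.23, edgeR adjusted p = 0.0299), and for no member less negative (background 0.165% and 0.0863%). For the other 37 members no difference was called, 10 of 39 being lower at an unadjusted p below 0.05, and DESeq2 called none. The share of all genes at that unadjusted p is not given here. Ifit1 lost its call without either blood library (-0.58 and -0.57), and Rsad2 without any one library (-1.28 to -0.78). Against stem and progenitor cells, in marrow alone, 1 of 36 members was called (background 0.214% lower and 0.149% higher): Cxcl10 at -4.95 (edgeR adjusted p = 0.033). This value rested on 25 Cxcl10 UMIs in 2 aged steady-state stem and progenitor cells, 18 of them in 1 cell, and turned to 2.96 without either steady-state library.

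In the lineages with 4 libraries, the fit left 1 residual degree of freedom besides what edgeR borrows across genes, and leaving out a library left no test. Isg15 passed in conventional dendritic cells and in immature neutrophils. In conventional dendritic cells it was at 27.6 and 5.43 CPM in young and aged steady-state marrow and at 47.4 and 13.3 after stroke (-1.98 ± 0.40, edgeR adjusted p = 0.00022), 1 member called of 18 (background 0.431% lower, 0.457% higher). These levels rested on 22 and 6 Isg15 UMIs at steady state and on 33 and 17 after stroke. One of the 47 young cells after stroke held 33.0% of that library's member UMIs, and the aged to young log2 ratio of the summed level there went from -0.41 to 0.08 without the cell with the most member UMIs in each library. In immature neutrophils its level was 13.8 and 6.45 before stroke and 14.0 and 7.26 after it (-0.98 ± 0.23, edgeR adjusted p = 0.0215), 1 of 34 (0.103% and 0.256%). Young exceeded aged in every one of these pairs.

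In plasmacytoid dendritic cells, professional producers of type I interferon, Isg15 was at 15.9 and 1.95 CPM in young and aged steady-state marrow, from 37 and 3 UMIs. Too few of these cells were gated in aged marrow after stroke for a test, and 4 of 19 members were lower by 1 or more log2 units with none higher (1.38% and 1.44% of genes). In the granulocyte progenitors Ifi209 stood at 68.7 and 49.4 CPM before stroke and 27.5 and 14.3 after it (-0.64 ± 0.13, edgeR adjusted p = 0.0279), 1 of 33 members called lower (0.0904%) and none higher (0.174%). DESeq2 called none of these 3 members. With a stricter marker gate the calls of Isg15 in conventional dendritic cells and of Ifi209 were lost, and with cells of at least 1000 UMIs only that of Isg15 in immature neutrophils was.

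Stem and progenitor cells had 1 member higher and 1 lower with age of 31 tested (2.76% and 1.76% of genes), and their member median was -0.04 (log2). Ifih1, the RNA sensor MDA5, was at 17.1 and 30.8 CPM in young and aged steady-state marrow and at 5.13 and 17.4 after stroke (0.96 ± 0.23, edgeR adjusted p = 0.00464). Irf7 moved the other way, from 15.3 to 8.54 at steady state and from 19.8 to 8.71 after stroke (-0.95 ± 0.29, edgeR adjusted p = 0.0409). DESeq2 called neither, and both calls were lost with the stricter gate. No member was called by edgeR in erythroid cells (0 of 21; 0.121% in each direction), NK cells (0 of 13; 0.114% higher, 0.244% lower), T cells (0 of 10; 0.0878% and 0.110%), basophils and mast cells (0 of 10; 0.0998% and 0.357%) or dividing pre-neutrophils (0 of 18; 0.234% and 0.0446%). At an unadjusted p below 0.05 there were 4 lower members in erythroid cells, 3 in NK cells and none in the other 3 lineages, none was higher, and DESeq2 called none of these 5 lineages' members. The percentages above are of adjusted calls, and no share of all genes at the unadjusted p is given here.

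The cells behind these levels were compared after each cell had been thinned to 1000 UMIs, so that depth was equal. Cells with at least 5 member UMIs were counted as rich in interferon-stimulated transcripts, which is a range of a count and not a cell type. In blood mature neutrophils 305 of 1564 young cells (19.5%, exact binomial interval 17.6% to 21.6%) and 241 of 3328 aged cells (7.24%, 6.38% to 8.18%) were rich. The thinning left out 62 shallower young cells and no aged cell, and without thinning 62.3% and 39.2% of cells passed the same count. The median thinned cell held 2 member UMIs in young and 1 in aged blood. Rich cells held 61.3% and 43.6% of all member UMIs. Cells with exactly 5 UMIs, just inside the cut, were 4.41% and 2.28% of cells, and cells with 4, just outside, were 6.97% and 3.88%.

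Blood monocytes differed in the same direction. Among classical monocytes 41 of 114 young cells (36.0%, 27.2% to 45.5%) and 113 of 628 aged cells (18.0%, 15.1% to 21.2%) were rich, and among non-classical monocytes 13.9% (6.87% to 24.1%) and 2.54% (1.49% to 4.04%). In marrow classical monocytes the rich share was 6.44% in young and 4.03% in aged mice at steady state, with overlapping intervals. After stroke it was 1 of 373 cells and 0 of 247 cells (exact upper limit 1.48%). In blood NK cells it was 4.39% of young and 0% of aged cells (upper limit 1.29%). Unthinned shares in classical monocytes, whose depth differed between libraries, were 94.3% and 97.5% in blood, 61.5% and 67.5% in steady-state marrow and 73.4% and 78.4% after stroke, young then aged.

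**Figure D4:**
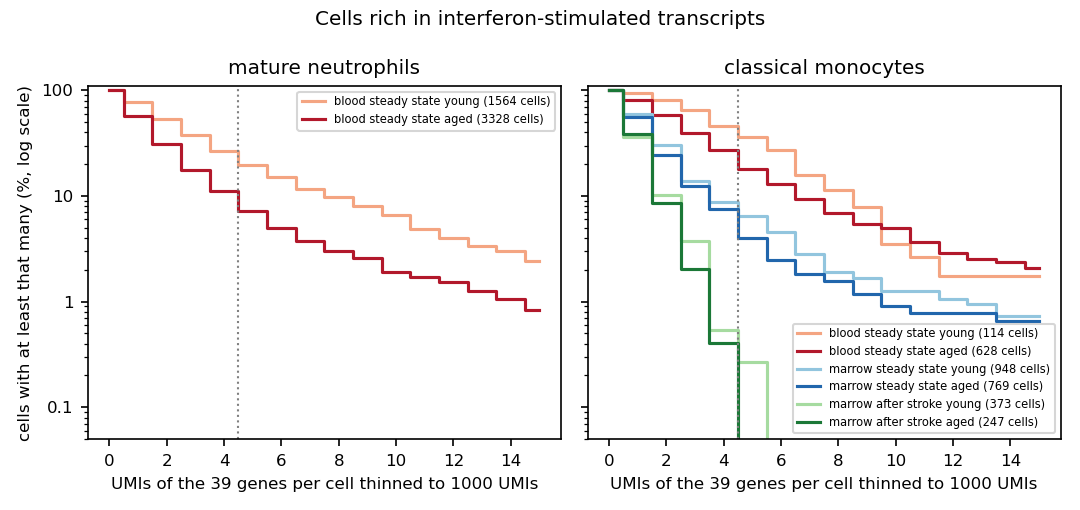
Share of cells (log scale) holding at least the number of member UMIs on the horizontal axis, each cell thinned to 1000 UMIs, by age and library. The dotted line lies just under the cut of 5 UMIs, and at the cut the young blood curves lie above the aged ones (19.5% against 7.24% in mature neutrophils), while those of classical monocytes cross at about 10 UMIs.

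Stroke was compared with steady state in marrow at both ages. In classical monocytes 26 of 35 members were lower and 1 was higher, where 22.3% and 24.2% of 12015 genes were called, and the member median was -1.04 (log2) against -0.03 over all genes. Their summed level fell from 1122 to 482 CPM in young and from 1006 to 393 in aged mice. Rsad2 was at 7.5 and 9.9 CPM in young and aged steady-state marrow and at 0.4 and 0.3 after stroke, a fall by 4.08 ± 0.48 (log2 ± SE, edgeR adjusted p = 5.87e-06). Usp18 was at 11.1 and 10.5 at steady state and at 0.94 and 0.855 after stroke (-3.10 ± 0.37, edgeR adjusted p = 7.12e-06). In both members the 2 ages had similar values and the stroke libraries lay far below.

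The remaining called members of classical monocytes included all 3 transcription factors (Irf7 -1.14, Stat2 -1.04, Irf9 -0.85), all 3 Ifi200 members, all 4 GTPases, and the 3 tested Ifit members (Ifit1 -3.12, Ifit3 -3.05, Ifit2 -1.93). Isg15 was lower by -0.68 and Cxcl10 by -2.30. Eif2ak2 and Ifih1 were the sensors called, at -1.04 and -0.60. Neutrophil marker UMIs in the same gate were 2690 and 3457 CPM before stroke and 5338 and 4832 after it, young then aged, and their part was not tested. With total-count scaling the member median was -1.50.

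Oas1a, a synthetase of the second messenger that activates RNase L, was the only member called higher after stroke in classical monocytes. In classical monocytes it was at 2.71 and 1.37 CPM in young and aged steady-state marrow and at 9.76 and 7.18 after stroke (2.52 ± 0.33, edgeR adjusted p = 1.77e-05). It also rose in neutrophil-primed granulocyte progenitors (from 1.29 and 1.71 to 6.60 and 5.12, log2 difference 2.32), in immature neutrophils (from 1.54 and 0.885 to 4.86 and 3.63, 2.29) and in stem and progenitor cells (from 3.09 and 3.35 to 16.8 and 15.96, 2.73). Both stroke libraries exceeded both steady-state libraries in each of these 4 lineages. Its near copy Oas1g was at 0 and 0 CPM in steady-state classical monocytes and at 0.47 and 0.342 after stroke. Oas1b, from the same gene cluster, was at 0.902 and 1.52 at steady state and at 1.18 and 0.513 after stroke, and Oas1c at 0.602 and 0.607 and at 1.29 and 1.20.

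In the fits reported, the other marrow lineages showed fewer members lower after stroke. This contrast depended in part on scaling, because with total-count scaling most tested members were lower in granulocyte progenitors and in erythroid cells too. Granulocyte progenitors had 14 of 33 lower and 2 higher (23.4% and 24.6% of genes; median -0.77, log2), led by Slfn5 at -2.24 ± 0.56 and Oasl2 at -1.93. Slfn5, a nuclear protein of the schlafen family, was at 2.87 and 2.11 CPM at steady state and at 0.22 and 0.434 after stroke. The higher members were Oas1a and Ifi35 (0.35). The median depth of these cells was 1172 UMIs in the young stroke library against 12016 to 15753 in the other 3. Immature neutrophils had 6 of 34 lower and 4 higher (18.0% and 18.8%; median -0.11). Ifit1 fell by 1.43, Ifit2 by 1.40 and Ifi47 by 1.16 on the log2 scale, while Oas1a, Oas2 (1.09), Isg15 (0.56) and Trim30a (0.56) rose. With total-count scaling 15 were lower and 1 higher and the median was -0.59.

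Neutrophils, immature and mature joined, had 6 of 35 lower and 5 higher (16.8% and 16.5%). One of the higher ones was Cxcl10 (2.25), which rested on the single aged cell described above and turned to -0.27 and -0.26 without the aged steady-state or aged stroke library. Mature neutrophils alone had 2 of 7 higher, Trim30a at 1.48 ± 0.27 and Oasl2 at 1.39 ± 0.42, and none lower (19.5% and 20.7%). Trim30a, which restrains inflammatory signalling, was at 126 and 125 CPM at steady state and at 259 and 272 after stroke in that gate. Both stroke libraries were above both steady-state libraries.

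Conventional dendritic cells had 4 of 18 higher and 2 lower (16.1% and 13%). Isg15 rose by 1.37 ± 0.39, Ifi211 by 1.25, Zbp1 by 1.18 and Slfn5 by 0.62 (log2), and Cmpk2 was lower by -2.36 and Trim30a by -0.70. Slfn5 was at 113 and 77.9 CPM in young and aged steady-state cells and at 121 and 91.9 after stroke. With total-count scaling fewer members were higher in this lineage and more were lower. Erythroid cells had 5 of 21 lower and 1 higher (11.9% and 17.3%), Rtp4 at -4.28 ± 0.86 and Isg20 at 0.58 ± 0.12. Rtp4 was at 8.30 and 6.68 CPM in young and aged steady-state cells and near the floor after stroke, at 0.533 and 0. Isg20 went from 93.8 to 104 CPM in young but from 67.5 to 61.1 in aged cells, and its call was lost with total-count scaling. Stem and progenitor cells had Oas1a higher and Irf9 lower (-0.58) of 31 tested (12.0% and 8.92%). Dividing pre-neutrophils had 2 of 18 lower, Ifi209 at -2.17 and Eif2ak2 at -0.95, and none higher (9.53% and 13.5%). No member was called by edgeR in basophils and mast cells (0 of 10; 7.83% higher, 3.95% lower; 1 lower at an unadjusted p below 0.05) or in T cells (0 of 10; 8.45% and 5.88%; 1 lower), and DESeq2 called none. These percentages are of adjusted calls and not of genes at the unadjusted p.

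**Figure D5:**
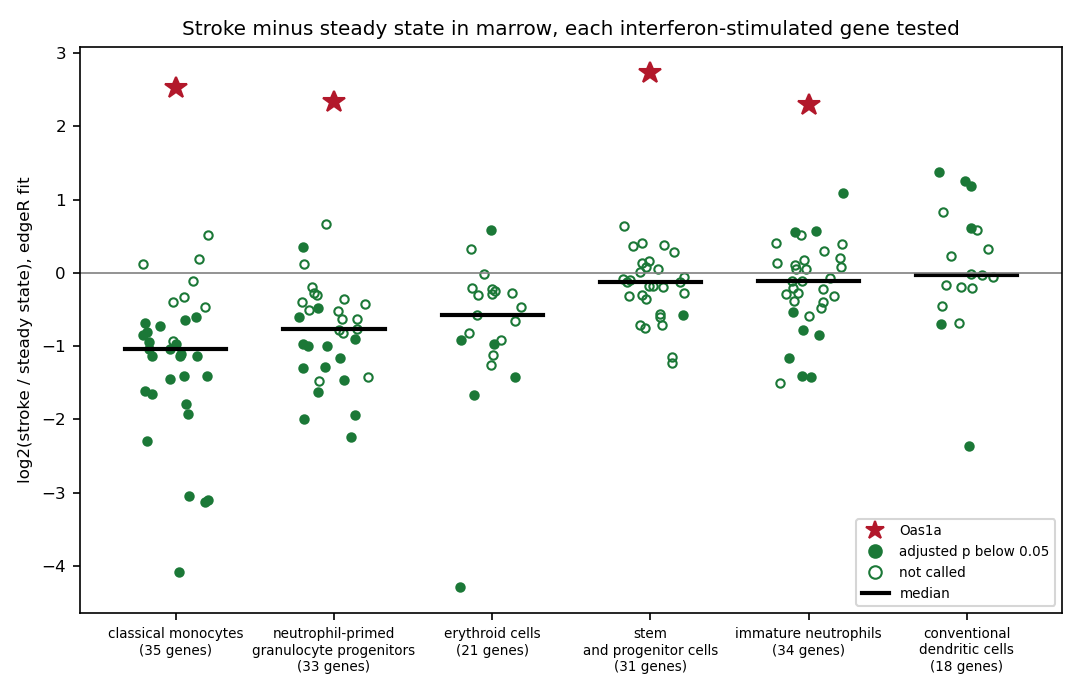
Stroke minus steady state (log2, edgeR fit over both ages) for each gene tested, in 6 marrow lineages; filled points passed the test, open ones did not, and bars are medians. Classical monocytes have the lowest median (-1.04) and reach Rsad2 at -4.08, Rtp4 in erythroid cells is at -4.28, and Oas1a (star) lies above 0 in the 4 lineages where it is drawn.

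Blood was set against steady-state marrow in the same fits, a contrast added after the levels had been seen. Tissue, sorting scheme and library cannot be told apart in it. In classical monocytes 37 of 38 members were higher in blood and none was lower, where 22.8% and 22.7% of genes were called, with a member median of 2.40 (log2). Oas1a led (5.55 ± 0.24, edgeR adjusted p = 1.65e-08), followed by Isg15 (3.44), Oasl2 (3.42) and Rtp4 (3.31), and the smallest called difference was that of Mx1 (0.77). Slfn5 was at 549 and 454 CPM in young and aged blood classical monocytes and at 82.4 and 79.9 in steady-state marrow (2.94 ± 0.19). Cmpk2 was the member without a call (0.19). The call count was 33 to 37 without any one library.

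In mature neutrophils 11 of 21 members were higher in blood and 1 was lower (22.6% and 25.2%; median 0.97), on 34 and 32 marrow cells. The filter on low counts took in the blood libraries, so a member could pass it through its blood level. Isg20, Irf7 and Slfn5 did not pass it in the fit of marrow libraries alone. This selection favours the count higher in blood. Isg20 was higher by 2.53, Oasl2 by 2.47, Irf7 by 2.07, Isg15 by 2.00 and Slfn5 by 1.81 (log2). The marrow side of these values was few UMIs in young and aged cells: 3 and 3 for Isg20, 7 and 7 for Oasl2, 7 and 2 for Irf7, 18 and 3 for Isg15 and 15 and 5 for Slfn5. Irf7 was at 122 and 65.2 CPM in young and aged blood and at 41.9 and 11.4 in steady-state marrow. Ifi209 was the lower member (-2.79 ± 0.97, edgeR adjusted p = 0.0295), a call that was kept without the aged stroke library and lost without either steady-state marrow library. The number higher was 6 without the young blood library and 17 without the aged stroke library.

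Of 47 other genes of the interferon pathway, 37 were in the count table. Ifng, the type II interferon, was the only ligand of 10 listed that the table held. In NK cells Ifng was at 111 and 43.1 CPM in young and aged blood (78 and 76 UMIs) and at 51.9 and 13.3 in marrow after stroke (15 and 4 UMIs). In T cells after stroke Ifng was at 4.41 and 80.5 in young and aged mice, with 1 library per age. In the aged stroke library T cells were thus above NK cells. Every neutrophil and monocyte gate held at most 3 Ifng UMIs. With age, Ifng was lower in NK cells (-1.42 ± 0.28, edgeR adjusted p = 0.026), the gate whose neutrophil marker UMIs also differed with age in blood. None of the 33 pathway genes tested in neutrophils and none of the 34 in classical monocytes was called by edgeR. The receptor median was -0.09 in neutrophils and -0.06 in classical monocytes (log2).

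The pathway lists are small, and the shares of all genes called in the same fits are those given above beside the member counts. After stroke, classical monocytes had 1 of 5 receptors higher and 1 lower, which is near those shares. In the same cells 3 of 6 regulatory factors were lower (Irf4 -2.40, Irf8 -1.46, Irf1 -0.44). Of 10 upstream sensors 4 were higher and 1 lower. Socs3, a feedback inhibitor of cytokine receptors, was higher by 4.48 (log2). In immature neutrophils 5 of 6 receptors were higher, from Ifngr1 at 0.46 to Ifnar2 at 0.65, and none was lower. Between blood and marrow, classical monocytes had 5 of 5 receptors, 4 of 6 regulatory factors and 7 of 11 upstream sensors higher in blood, with Tlr7 at 3.56. Of the upstream sensors 1 was lower. Irf8, which guides monocyte and dendritic cell development, was lower in blood by -1.22.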

How the data were processed

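The deposited table held UMI counts per gene and cell barcode, whole numbers and not normalized, for 23016 genes. The submitters' processing notes name, without roles, featureCounts 1.6.4, Subread, STAR 2.5.3a, UMI-tools and Cell Ranger 3.0.2, and the builds GRCm38 and mm10. Reads from near copies and from overlapping genes cannot be told apart here.

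Cells entered with at least 500 UMIs and 200 genes and a mitochondrial share up to 10%. No doublet was removed in the values reported, and cells with a simulated-doublet score over 0.25 (3.05% to 4.78% in steady-state and blood libraries, 0.397% and 0.603% after stroke) were left out in an alternative. Lineages were gated on at least 3 marker genes (4 in the stricter gate), or at least 2 granule and 2 cell cycle genes for dividing pre-neutrophils (3 and 2 in the stricter gate), with on thresholds set after seeing the values. The 39 members, the lists and the comparisons were chosen with earlier results of these data known.

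Counts summed per lineage and library went into the quasi-likelihood test of edgeR 4.0.16 under R 4.3.3, after filterByExpr and with TMM factors, and DESeq2 1.42.0 was an alternative. The age fits had the context as a term (2 residual degrees of freedom with 6 libraries, 1 with 4), the stroke fits had age as a term, and the lineage contrast had the library as a block. Where libraries were single, members with at least 20 UMIs in a pair were described by a log2 ratio of 1 or more. Values in every library are given for selected members that passed a test in the lineage described, and otherwise for up to 2 members of a role with the most UMIs. The other members that passed are given by their log2 difference or are only counted. The edgeR fits were also run on simulated data, but no outcome is given here, so their error rates are not shown. Promoters came from RefSeq GRCm38.p6 and gene positions from GENCODE of the same build. One gene of the pathway is not reported here.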

Additional observations from a re-analysis of the deposited data

Results flagged for a closer look

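The age effect on Ifit1 differed between neutrophils and classical monocytes by -1.22 (log2, edgeR adjusted p = 0.0109), a test of the difference itself, and without either blood library the value was -0.58 and -0.57 and the call was lost. The same difference for Rsad2 was -0.93 (edgeR adjusted p = 0.0299), and it was called in none of the 6 fits without 1 library. For Cxcl10 the age effect in neutrophils minus that in stem and progenitor cells was -4.95 (edgeR adjusted p = 0.033), with 25 UMIs in 2 aged steady-state stem and progenitor cells, and it was 2.96 without either steady-state marrow library. The summed level of the 39 genes in mature neutrophils after stroke was higher in the aged library, at a log2 ratio of 0.99, while it was lower in the aged libraries of blood (-0.91) and steady-state marrow (-1.05). That last difference was not tested, and without the cell with the most member UMIs in each library the ratio after stroke was 0.48.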

How the results depend on the processing

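No paired analysis was possible because each group was 1 library and the labels carry no replicate numbers. Among the alternatives run, the counts of members called stayed within 1.5 times in 587 of 732 cases, and of the 153 aged to young ratios of the summed level 9 moved beyond their interval and 1 changed sign. Of 327 summed levels 82 were counted as moved, of 326 shares 43 and of 450 medians 41. Of 1383 values of single members 72 moved, 74 became weaker, 47 became stronger and 6 were reversed. The causes of these changes were not tested, except that the Wald test and the leaving out of libraries use other or fewer data by construction. The stricter gate gave no value for basophils and mast cells or for mature neutrophils in the marrow fits. The 4-library fits of age and stroke gave no test without 1 library, so only their medians are given. Counts of members called under an alternative stand below without the share of all genes called in the same fit.

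With DESeq2's Wald test, 4 members were lower with age in neutrophils, and 0 in stem and progenitor cells (higher or lower), granulocyte progenitors, immature neutrophils and conventional dendritic cells. After stroke it called 4 lower and 1 higher in granulocyte progenitors, 2 higher and 0 lower in neutrophils, 1 higher and 0 lower in immature neutrophils and in conventional dendritic cells, 1 higher in mature neutrophils, 0 in erythroid cells (higher or lower), and 0 lower in stem and progenitor cells and dividing pre-neutrophils. In the lineage contrast it called 9 higher in immature neutrophils, 2 higher in basophils and mast cells, 4 higher in erythroid cells and 0 lower in T cells. It called 0 differences of the age effect, and 7 members higher in blood mature neutrophils than in marrow.

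With total-count scaling, members lower after stroke numbered 27 in granulocyte progenitors (1 higher, median -1.17), 15 in immature neutrophils (1 higher, -0.59), 15 in erythroid cells (0 higher, -1.15), 13 in neutrophils (2 higher, -0.44), 11 in stem and progenitor cells (-0.53), 5 in conventional dendritic cells (1 higher, -0.48), 5 in dividing pre-neutrophils, 1 in mature neutrophils (1 higher), 1 in T cells (median -0.18) and 1 in basophils and mast cells. The median in classical monocytes was -1.50. With age it gave 3 lower in immature neutrophils, 1 in mature neutrophils and 1 in erythroid cells, and 2 differences against stem and progenitor cells. In the lineage contrast it gave 29 lower in dividing pre-neutrophils (median -1.85, Ddx58 at -0.12), 7 higher and 13 lower in immature neutrophils (-0.39), 3 lower in classical monocytes, 2 higher in basophils and mast cells, 4 higher in erythroid cells, 0 lower in T cells and a median of 0.60 in stem and progenitor cells. Between blood and marrow, the classical monocyte median was 2.07 and 2 members were lower in mature neutrophils. With DESeq2's size factors in the edgeR fit, members lower with age were 0 in granulocyte progenitors and 2 in immature neutrophils, 0 were lower after stroke in stem and progenitor cells, and the lineage contrast gave 9 higher in immature neutrophils and 0 lower in T cells.

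Without a filter on low counts, members lower with age were 14 in neutrophils (1 higher), 5 in classical monocytes (1 higher), 2 in mature neutrophils (1 higher), 2 in immature neutrophils and 1 in erythroid cells, with a median of -0.59 in NK cells. After stroke there were 9 lower in erythroid cells (median -0.98), 4 higher and 3 lower in mature neutrophils, 2 lower in stem and progenitor cells, 1 higher in granulocyte progenitors and a median of -0.26 in T cells. The lineage median was -1.20 in granulocyte progenitors and 0.62 in classical monocytes (3 lower). The difference of the age effect had 1 lower against classical monocytes and 0 against stem and progenitor cells, and 19 members were higher in blood mature neutrophils (median 1.61).

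With the stricter gate, members called with age were 0 in stem and progenitor cells (higher or lower), 0 lower in granulocyte progenitors and conventional dendritic cells, and 1 lower in mature neutrophils and in erythroid cells. After stroke they were 0 lower in stem and progenitor cells, 1 higher in granulocyte progenitors and 1 lower in conventional dendritic cells. The lineage median was 0.67 in classical monocytes and 1.12 in conventional dendritic cells (1 lower). The difference of the age effect had 1 lower against classical monocytes and 0 against stem and progenitor cells, and the aged to young ratio after stroke was -0.27 (log2) in conventional dendritic cells and -0.12 in NK cells. Without cells of a doublet score over 0.25, 0 members were lower with age in stem and progenitor cells and 1 in erythroid cells. After stroke 0 were lower in stem and progenitor cells, 1 in dividing pre-neutrophils, and 2 were higher in immature neutrophils. In the lineage contrast 5 were lower in basophils and mast cells, and the blood aged to young ratio was -0.76 in B lineage cells and -0.31 in NK cells. With at most 5% mitochondrial UMIs, 2 members were lower with age in immature neutrophils, 1 in erythroid cells, and 0 lower in T cells in the lineage contrast. With at least 1000 UMIs per cell, a choice made after seeing the data, these age counts were 0 and 1, and 2 were lower after stroke in stem and progenitor cells.

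Without members that have a near copy, the aged to young ratio was -0.85 in blood mature neutrophils and in blood neutrophils, -0.089 in steady-state granulocyte progenitors and -0.090 in steady-state classical monocytes. Without the cell with the most member UMIs, also chosen after seeing the data, it was 0.48 in mature neutrophils and 0.083 in conventional dendritic cells after stroke. With a cut of 6 UMIs, rich cells were 15.1% of young and 4.96% of aged blood mature neutrophils, 13.1% of aged blood classical monocytes, 5.56% and 0.747% of non-classical monocytes, 4.54% and 2.47% of steady-state classical monocytes and 0% of young ones after stroke. With cells thinned to 500 UMIs, they were 7.63% and 2.88%, 11.5% and 5.25% of blood classical monocytes, 5.56% and 0.448%, 1.27% and 0.78%, and 0%, in the same order.

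Leaving out 1 library at a time, members lower with age ranged from 1 to 13 in neutrophils (0 to 1 higher), from 0 to 12 in mature neutrophils (0 to 1 higher, median -0.98 to 0.041) and from 0 to 6 in classical monocytes (0 to 1 higher), and the NK median from -0.55 to 0.38. The median after stroke ranged from -0.69 to 1.64 in mature neutrophils and from -0.22 to 0.055 in T cells. In the lineage contrast, members lower ranged from 3 to 6 in stem and progenitor cells, 1 to 2 in immature and in mature neutrophils, 2 to 4 in classical monocytes, 1 to 3 in basophils and mast cells and 0 to 1 in T cells, and members higher in erythroid cells from 2 to 4. Medians there ranged from -1.31 to -1.14 in granulocyte progenitors, 0.26 to 0.66 in classical monocytes, 0.11 to 0.76 in conventional dendritic cells and -1.19 to -0.78 in erythroid cells. The difference against classical monocytes had 0 to 1 lower. Cxcl10 ranged from -0.27 to 4.40 after stroke in neutrophils, from -5.70 to 6.61 in the lineage contrast of mature neutrophils and from -5.02 to 2.96 in the difference against stem and progenitor cells. Between blood and marrow the classical monocyte median ranged from 2.08 to 2.66, and mature neutrophils had 6 to 17 higher and 0 to 1 lower with a median of 0.91 to 1.93.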
